A study of Mus musculus with 2 samples.

Results

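The genes described here are 8 ligands of the TNF superfamily, measured by droplet-based scRNA-Seq in lung group 2 innate lymphoid cells (ILC2s), which are tissue-resident lymphocytes without antigen receptors. The 8 genes (Tnf, Ltb, Tnfsf8, Tnfsf10, Tnfsf11, Tnfsf14, Fasl and Cd40lg) were chosen as a named list among the 32285 genes of the count matrices, and all 8 were found by symbol. They were read in barcodes that held 500 or more genes and no more than 10% mitochondrial UMIs, which left 8394 of 10866 WT and 7087 of 9495 Pac1-/- barcodes, called cells from here on. The mice were on the C57BL/6J background, of both sexes and 6 to 8 weeks old by the study's methods, and no treatment is stated for these 2 libraries. In each, the live lineage-negative CD90.2+ ST2+ Sca-1+ lung cells of 4 to 5 mice were pooled before loading. Pac1, also called Dusp2, encodes a nuclear phosphatase of MAP kinases, and is deleted in Pac1-/- mice. Cells could not be assigned to single mice. Levels are counts of unique molecular identifiers (UMIs), in which each captured transcript is counted once.

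TNF superfamily ligands are mostly made as trimeric membrane proteins that bind receptors on neighbouring cells, and some are shed as soluble factors. Many of their receptors recruit TRAF adaptors to switch on NF-κB, and some carry death domains. Lymphocytes use these ligands for inflammation (TNF), lymphoid tissue organisation (lymphotoxin-β, LIGHT and RANKL), cell death (FasL and TRAIL) and help to B cells and other lymphocytes (CD40L and CD30L). Activated ILC2s are known chiefly for IL-5 and IL-13, which recruit eosinophils and drive mucus production, so each ligand was also read by whether a cell held a UMI of Il2, Il5 or Il13.

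The targeted gene was checked first, and Dusp2 gave 1419 UMIs in the WT library against 5 in the Pac1-/- library. Passing cells held 54579034 UMIs in WT and 58338886 in Pac1-/-, with medians of 4186.5 and 5577 UMIs per cell. At least 3 of 10 ILC2 markers were detected in 7978 WT and 6774 Pac1-/- cells. The 2 libraries shared 29 barcode sequences, 0.267% of those in WT. Each genotype had 1 library, so no difference between genotypes had a replicate check and no test was made. The 95% intervals given below cover counting error only. The median gene was 0.19 higher in Pac1-/- on the log2 scale, and ratios called relative are given after that shift.

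Ltb was the most abundant of the 8 ligands and was higher in Pac1-/-, whereas Tnfsf8 was lower there by the largest factor of the list. In UMIs per 1000000 UMIs of the library (CPM), Ltb stood at 385 in WT and 719 in Pac1-/-, a 1.87-fold difference as counted. Tnfsf8 stood at 23.4 CPM in WT and 4.20 CPM in Pac1-/-, 5.58-fold lower. Tnf, at 118 CPM in WT and 91.3 CPM in Pac1-/-, differed by less than 1.5-fold, as did Tnfsf10, Tnfsf11 and Tnfsf14, and Fasl and Cd40lg were close to the detection limit in both libraries. Since UMIs are counted at the 3′ end, these levels do not scale with transcript length. Other differences between genes in capture were not tested, so a ranking of the ligands is one of counted UMIs.

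**Figure D1:**
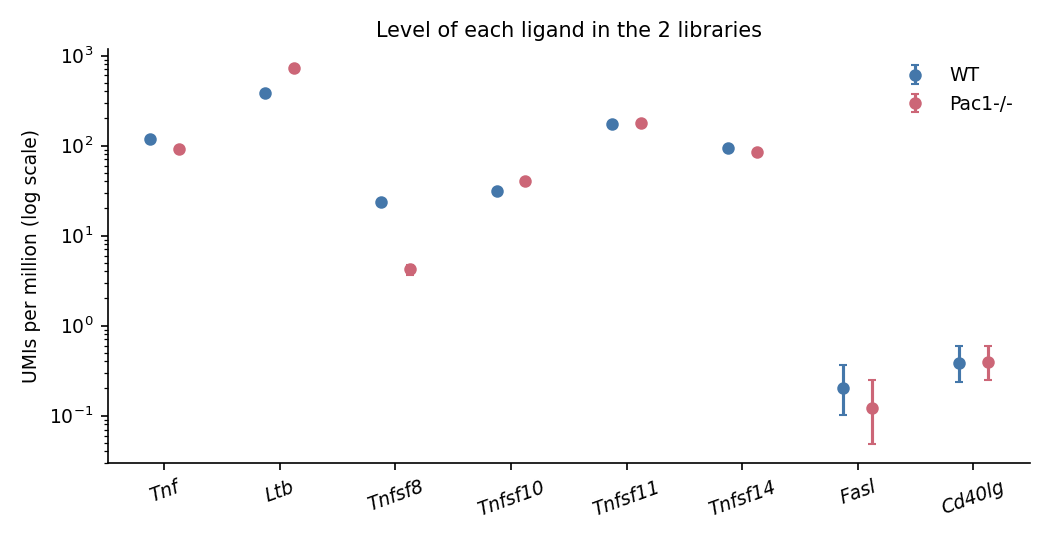
Level of each of the 8 ligands in CPM (vertical axis, log scale) in the WT library (blue) and the Pac1-/- library (red). Points are the 2 libraries and bars are exact 95% Poisson intervals for counting error; Ltb is the highest point of each library, and the widest gap between them is that of Tnfsf8, 23.4 against 4.20 CPM.

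Of the 8 ligands, 6 held the 50 UMIs over both libraries that were asked of a gene for a ratio. Relative to the median gene, 1 of these 6 was higher in Pac1-/- by at least 1.5-fold (Ltb), beside 8.22% of the 12427 genes compared. Another 1 of the 6 was lower by at least that factor (Tnfsf8), beside 12.8% of all genes. The median relative log2 ratio of the 6 ligands was -0.26, and as counted it was -0.068. As counted, Ltb and Tnfsf8 were again the ligands past 1.5-fold, but over all genes the split of 1021 higher and 1586 lower turned to 2099 higher and 1036 lower.

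Ltb encodes lymphotoxin-β, which anchors lymphotoxin-α in the membrane heterotrimer that binds the lymphotoxin-β receptor. The gene lies on chromosome 17 of GRCm38 at chr17:35194439-35196320, on the plus strand. It was counted 21001 times in WT and 41940 times in Pac1-/-, and its relative log2 ratio was 0.71 (95% interval 0.69 to 0.74). Ltb made up 46.6% of all UMIs of the 8 ligands in WT and 64.3% in Pac1-/-. The difference lay both in the number of positive cells and in the UMIs per positive cell. Cells with a Ltb UMI made up 69.9% of the WT library and 85.8% of the Pac1-/- library. Positive cells held 3.58 UMIs on average in WT and 6.90 in Pac1-/-, at unequal depth.

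Because Pac1-/- cells held more UMIs, shares of cells were also compared after thinning each cell at random to 1500 UMIs, which kept 7634 WT and 6564 Pac1-/- cells. On that footing, Ltb-positive cells made up 40.9% (95% interval 39.8 to 42.0%) in WT against 58.6% (57.4 to 59.8%) in Pac1-/-. Positive thinned cells held 1.48 UMIs in WT and 1.91 in Pac1-/-. The 2 intervals of the shares did not overlap, and 20 repeated thinnings gave 40.1 to 41.3% in WT and 57.6 to 59.5% in Pac1-/-. The difference was larger than the counting error and the error of thinning, and the spread between mice could not be measured.

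Tnf encodes the founding cytokine of the family. It lies on chromosome 17 at chr17:35199381-35202007 on the minus strand, 3060 bases beyond the 3′ end of Ltb, and Lta starts a further 1157 bases on. These neighbours did not move together: Tnf was lower in Pac1-/- while Ltb was higher, and Lta, the partner of Ltb in the heterotrimer, stood at 18.3 CPM in WT and 23.2 CPM in Pac1-/-. Tnf was counted 6435 times in WT and 5329 times in Pac1-/-, and its relative log2 ratio was -0.56 (-0.61 to -0.50), just short of the 1.5-fold limit of 0.58.

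The size of the Tnf difference depended on how cells of different depth were weighted. After thinning, which gives each cell the same weight, Tnf stood at 119 CPM in WT and 79.2 CPM in Pac1-/-, and its relative log2 ratio was -0.76 (-0.89 to -0.64), past 1.5-fold. Tnf-positive thinned cells made up 12.5% (11.8 to 13.3%) in WT against 8.73% (8.06 to 9.44%) in Pac1-/-. In WT the level was alike in shallow and deep cells, at 119 CPM in cells up to the median depth and 117 CPM above it. In Pac1-/- it was 66.9 CPM in the shallower and 98.6 CPM in the deeper cells. The highest single cell held 28 Tnf UMIs in WT and 37 in Pac1-/-. With predicted doublets left out, whose median depth was 12552.5 UMIs in WT and 14176.5 in Pac1-/-, the relative log2 ratio was -0.61.

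The promoter windows of Tnf, Ltb and Tnfsf8 are shown for 2 reasons. Among the 6 ligands with at least 50 UMIs, these 3 differed most between the libraries relative to the median gene. Tnf and Ltb are also adjacent genes that differed in opposite directions. Sequences are from RefSeq (GRCm38.p6), from 250 bases before to 50 bases after the transcription start, in the direction of transcription. Capitals mark matches on either strand to an NF-κB motif of 10 bases, TGANTCA (AP-1), TGACGT (the core of a cAMP response element) and GGAAAA (an NFAT core). Over the 27025 promoters of that length these motifs occur in 1.43%, 7.93%, 7.64% and 23.6%, in that order. The windows are chr17:35201958-35202257 (minus strand) for Tnf, chr17:35194257-35194556 (plus strand) for Ltb and chr4:63861235-63861534 (minus strand) for Tnfsf8.
Tnf: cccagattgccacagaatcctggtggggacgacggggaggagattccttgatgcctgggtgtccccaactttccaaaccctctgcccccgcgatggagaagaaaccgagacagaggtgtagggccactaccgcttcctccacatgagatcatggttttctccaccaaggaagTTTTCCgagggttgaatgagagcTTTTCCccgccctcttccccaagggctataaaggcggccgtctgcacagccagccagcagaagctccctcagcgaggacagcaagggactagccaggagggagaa
Ltb: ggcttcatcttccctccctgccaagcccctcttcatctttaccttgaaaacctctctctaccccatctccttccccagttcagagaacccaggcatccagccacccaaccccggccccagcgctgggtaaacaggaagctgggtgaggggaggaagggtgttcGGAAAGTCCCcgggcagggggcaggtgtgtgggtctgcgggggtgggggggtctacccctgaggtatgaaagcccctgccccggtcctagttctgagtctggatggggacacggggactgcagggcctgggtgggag
Tnfsf8: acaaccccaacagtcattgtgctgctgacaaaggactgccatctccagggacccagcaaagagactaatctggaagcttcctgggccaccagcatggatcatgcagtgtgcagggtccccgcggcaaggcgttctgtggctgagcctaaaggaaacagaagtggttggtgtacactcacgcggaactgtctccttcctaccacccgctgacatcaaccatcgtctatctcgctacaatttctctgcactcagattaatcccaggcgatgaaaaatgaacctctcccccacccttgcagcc

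The Tnf window held 2 matches to the NFAT letters, 78 to 73 and 55 to 50 bases before the start site. The Ltb window held 1 match to the NF-κB letters, 87 to 78 bases before the start site. The Tnfsf8 window matched none of the 4 motifs. Among the other ligands with an entry, Tnfsf14 held 1 AP-1 match and Fasl 1 NFAT match, whereas Tnfsf10 and Tnfsf11 held none. Cd40lg had no entry. A match describes the letters of the window and is not evidence of binding.

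Tnfsf8 encodes CD30L, the ligand of CD30, and lies at chr4:63831308-63861347 on the minus strand. Its UMIs were concentrated in few cells. In WT, 219 cells (2.61%, 2.28 to 2.97%) held all 1278 UMIs, and the 6 highest cells held 51, 50, 46, 42, 42 and 41. In Pac1-/-, 69 cells (0.974%, 0.758 to 1.23%) held all 245 UMIs, and the highest cell held 20.

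The 1% of WT cells with the most Tnfsf8 UMIs held 85.8% of them, against 7.42% for Ltb and 17.2% for Tnf in the respective cells. Among 3721 WT genes with total UMIs within 2-fold of Tnfsf8, itself included, the median gene had 16.9% of its UMIs in its top 1% of cells. Only 3 of them, Tnfsf8 included, reached the value of Tnfsf8. This comparison was chosen after the values had been seen.

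The genotype difference of Tnfsf8 was present in the number of positive cells and more so in the strongly positive ones. Cells with at least 10 Tnfsf8 UMIs numbered 37 in WT (0.441% of cells, 0.311 to 0.607%) and 6 in Pac1-/- (0.0847%, 0.0311 to 0.184%). The WT cells of that kind held 65.6% of the library's Tnfsf8 UMIs. With the 10 highest cells of each library left out, an alternative added after seeing the data, Tnfsf8 stood at 16.2 CPM in WT and 2.29 CPM in Pac1-/-. The relative log2 ratio was -2.67 (-2.87 to -2.47) over all cells and -3.01 without those cells. The 10 cells came from 219 positive cells in WT but from 69 in Pac1-/-. The step thus took a larger share of the positive cells in Pac1-/-, and no conclusion is drawn from the wider ratio. Since UMIs of a strongly positive cell are not independent draws, these intervals are narrower than the spread over cells.

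The cells with Tnfsf8 carried ILC2 markers. Of the 219 WT cells, 204 (93.2%) held a UMI of Gata3, against 88.8% of all WT cells. By the study's introduction, ILC2s share this transcription factor with type 2 helper T cells, so Gata3 alone does not tell them apart. Il1rl1, which encodes the IL-33 receptor ST2, was held by 211 of the 219 (96.3%), against 91.9% of all WT cells. Cd3e, a component of the T cell receptor complex, was detected in 12.8% of the 219 cells against 3.69% of all WT cells. At least 3 of the 7 T cell markers were detected in 18.3% of them against 5.43% of all WT cells. In Pac1-/- these 2 shares were 10.1% and 3.63%. Of the 37 WT cells with at least 10 Tnfsf8 UMIs, 89.2% held Gata3, 91.9% Il1rl1 and 21.6% at least 3 T cell markers. The positive WT cells were also deeper, with a median of 9014 UMIs, and 15.1% of them were predicted doublets against 8.70% of all WT cells. Of the positive Pac1-/- cells, 21.7% were predicted doublets against 7.59% of all Pac1-/- cells. Tnfsf8 stood at 24.7 CPM in WT without predicted doublets and at 20.4 CPM without cells over 2 times the median depth. The relative log2 ratios between genotypes were then -3.12 and -2.84. The part of the T cell markers in the Tnfsf8 level was not tested.

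**Figure D2:**
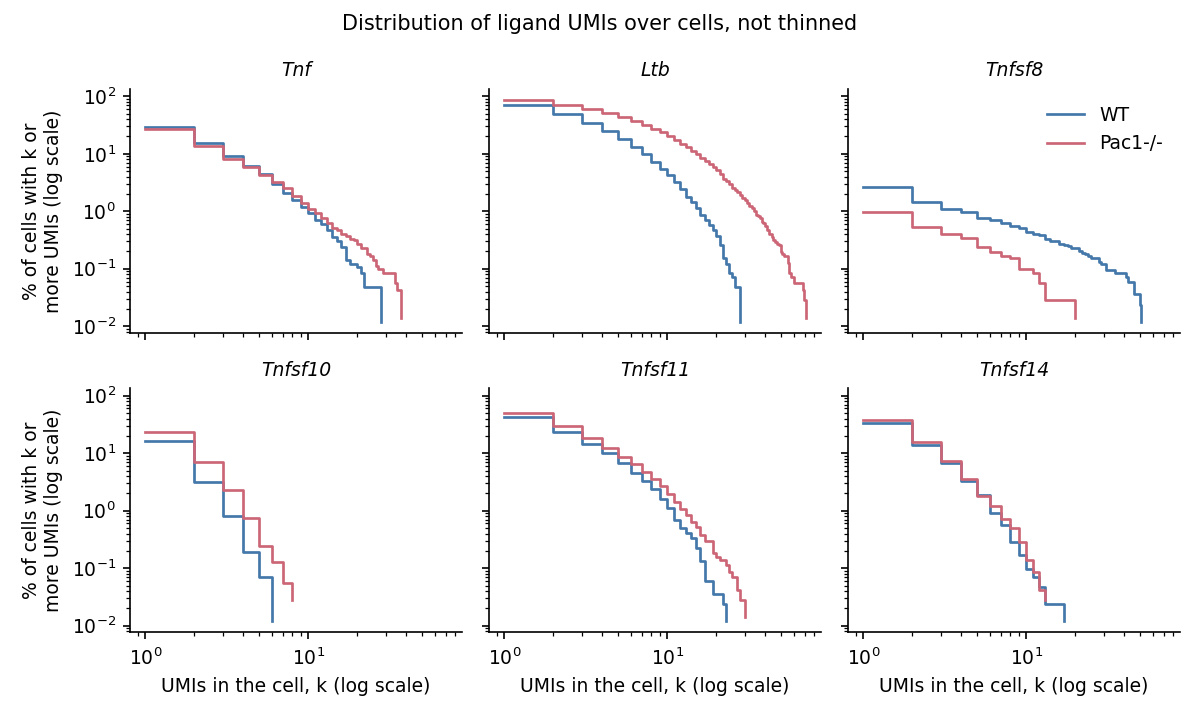
Distribution of ligand UMIs over cells for the 6 ligands with at least 50 UMIs. The horizontal axis is the number of UMIs k in a cell (log scale), the vertical axis the percent of all passing cells of the library with k or more UMIs (log scale), blue for WT and red for Pac1-/-; the Ltb curve of Pac1-/- lies above that of WT throughout, and the Tnfsf8 curve of WT reaches 51 UMIs from a start of 2.61% of cells.

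Tnfsf10, Tnfsf11 and Tnfsf14 stayed within 1.5-fold between the libraries. Tnfsf10 encodes TRAIL, which triggers death receptors, and lies at chr3:27317028-27342427 on the plus strand. It stood at 31.3 CPM in WT and 40.8 CPM in Pac1-/- (relative log2 ratio 0.20, 0.11 to 0.29). Its highest count in a single cell was the lowest among the 6 detected ligands: no cell held more than 6 Tnfsf10 UMIs in WT or 8 in Pac1-/-. Thinned shares were 4.45% and 5.68%.

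Tnfsf11 encodes RANKL, the ligand of RANK that drives osteoclast formation and lymph node development, and lies at chr14:78277445-78308043 on the minus strand. At 174 CPM in WT and 178 CPM in Pac1-/- it was second to Ltb in both libraries. As counted, its log2 ratio of 0.03 (-0.01 to 0.07) did not differ from 0 beyond counting error, and relative to the median gene it was -0.16 (-0.20 to -0.12). In thinned cells of equal weight the relative value was -0.013 (-0.11 to 0.085), and its sign changed between settings. The thinned share was 18.3% in WT and 20.2% in Pac1-/-.

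Tnfsf14 encodes LIGHT, a ligand of HVEM and of the lymphotoxin-β receptor, and lies at chr17:57189492-57194177 on the minus strand. It stood at 94.0 CPM in WT and 83.8 CPM in Pac1-/-, with a relative log2 ratio of -0.35 (-0.41 to -0.30). The thinned share was 12.0% (11.3 to 12.7%) in WT and 10.5% (9.79 to 11.3%) in Pac1-/-, with intervals that met at their ends.

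Fasl and Cd40lg were almost absent. Fasl encodes the ligand of the death receptor Fas, and lies at chr1:161780689-161788495 on the minus strand. It gave 11 UMIs in 9 WT cells and 7 UMIs in 7 Pac1-/- cells. Only 4 of all passing barcodes held at least 2 of 5 markers of NK cells and ILC1s, and 3 of these 4 were among the 16 Fasl-positive cells. These 3 cells together held 93 UMIs of Gzma, which encodes a granzyme of cytotoxic cells. They held 4 of the 18 Fasl UMIs, and 2 of the 3 also held a Gata3 UMI. The other 13 Fasl-positive cells did not reach 2 such markers. Among all Fasl-positive cells, Gata3 was detected in 8 of 9 in WT and 7 of 7 in Pac1-/-. Il1rl1 was detected in 7 of 9 and 7 of 7, as were at least 3 of the 10 ILC2 markers.

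Cd40lg encodes CD40L, by which T cells help B cells, and lies at chrX:57212143-57224042 on the plus strand. It gave 21 UMIs in 13 WT cells and 23 UMIs in 10 Pac1-/- cells. All 23 positive cells held a UMI of Il1rl1, and Gata3 in 11 of 13 cells in WT and 10 of 10 in Pac1-/-. Cd4 was detected in 0 of them, and Cd3e in 1, which was from the Pac1-/- library. Cd3g, another component of the T cell receptor complex, was detected in 10 of 13 cells in WT and 8 of 10 in Pac1-/-, against 33.5% and 26.7% of all cells. These cells were deeper than the rest, with medians of 5657 UMIs in WT and 15773.5 in Pac1-/-. With so few UMIs no difference between genotypes was detectable for either gene: the log2 ratio as counted was -0.75 (-2.35 to 0.75) for Fasl and 0.04 (-0.88 to 0.96) for Cd40lg.

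The order of levels in WT was Ltb, Tnfsf11, Tnf, Tnfsf14, Tnfsf10, Tnfsf8, Cd40lg and Fasl. Neighbours in that order differed beyond their counting intervals except Cd40lg (0.385 CPM, 0.238 to 0.588) and Fasl (0.202 CPM, 0.101 to 0.361). In Pac1-/- the order of the 8 was the same, and each neighbour differed beyond its interval, Cd40lg and Fasl by the narrowest margin (0.394 CPM, 0.250 to 0.592, and 0.120 CPM, 0.0482 to 0.247). The Pac1-/- UMIs of Cd40lg were clumped, with 7 in 1 cell and 4 in each of 2 cells. UMIs of 1 cell are not independent draws, so the last 2 genes are not securely apart. By positive cells they numbered 10 and 7. To gauge free RNA in the droplets, ligands were also counted in barcodes with at least 3 stromal or endothelial markers, of which 8 in WT and 10 in Pac1-/- reached the thinning depth. A Ltb UMI was found in 2 of these 8 (exact interval 3.19 to 65.1%) and in 2 of these 10 (2.52 to 55.6%), and a Tnf UMI in 1 and 0. These barcodes were too few to set a background for any ligand, and before thinning 6 of 14 in WT and 3 of 18 in Pac1-/- also held at least 3 ILC2 markers.

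The wider family and its signalling genes were counted in the same way. Of 10 further ligands of the superfamily, 6 reached 50 UMIs, 0 were higher and 3 lower in Pac1-/- by 1.5-fold relative to the median gene, beside 8.22% and 12.8% of all genes. Their median relative log2 ratio was -0.57. The 3 were Tnfsf9, which encodes the 4-1BB ligand (52.5 CPM in WT, 39.4 CPM in Pac1-/-), Cd70, the ligand of CD27 (109 and 70 UMIs), and Tnfsf18, the GITR ligand (1.06 and 0.634 CPM). As counted, 2 of these 3 were lower by that factor, and Tnfsf9 was not.

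Receptors were split. Of 28 receptors, 18 reached 50 UMIs, and 4 were higher and 4 lower in Pac1-/- by 1.5-fold, beside 8.22% and 12.8% of all genes. The lower ones were Tnfrsf1b, the TNF receptor of lymphocytes (38.7 and 16.4 CPM, relative log2 ratio -1.43), Tnfrsf9, the costimulatory receptor 4-1BB (22.2 and 11.5 CPM, -1.13), Tnfrsf4, or OX40 (7.86 and 4.97 CPM, -0.85), and Fas (9.42 and 7.10 CPM, -0.60). The higher ones were Tnfrsf26 (1.04 and 2.31 CPM, 0.96), Tnfrsf21 (3.77 and 7.63 CPM, 0.83), Tnfrsf1a, the widely expressed TNF receptor (0.825 and 1.63 CPM, 0.79), and Tnfrsf13b, or TACI (3.98 and 6.81 CPM, 0.59). As counted, 7 receptors were higher and 3 lower, beside 16.9% and 8.34% of all genes. The median relative log2 ratio of the 18 was -0.20.

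Read as pairs with their receptors, few of the 8 ligands met an abundant receptor in the same libraries. Ltbr, the receptor of lymphotoxin-β, gave 8 UMIs in WT and 20 in Pac1-/-, and Tnfrsf8, which encodes CD30, gave 6 and 3. Tnfrsf14, which encodes the LIGHT receptor HVEM, gave 62 and 56 UMIs, and Cd40 gave 9 and 11. Receptors detected at higher levels were Tnfrsf11a, which encodes RANK (22.0 and 22.4 CPM), Tnfrsf10b, a TRAIL death receptor (35.4 and 28.4 CPM), and Tnfrsf1b above. Tnfrsf22 and Tnfrsf23, decoy receptors of TRAIL, stood at 1.94 and 3.19 CPM in WT and 3.05 and 5.19 CPM in Pac1-/-. The RANKL decoy Tnfrsf11b gave 0 UMIs in both libraries.

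All 12 genes of ligand processing and mRNA decay reached 50 UMIs, and 0 were higher and 2 lower by 1.5-fold, beside the same 8.22% and 12.8%, with a median of 0.076. These were Rhbdf2, which encodes a partner of the TNF sheddase (3.85 and 2.67 CPM), and Rc3h1, which encodes Roquin-1, a factor that destabilises Tnf mRNA (105 and 79.7 CPM), and neither passed as counted. Of 17 signal genes, 1 was higher and 4 lower, beside the same shares, with a median of -0.051. Tradd, which encodes an adaptor of TNF receptor 1, was higher (5.50 and 13.7 CPM, relative log2 ratio 1.13). Birc3, Map3k14, Nfkb2 and Casp8 were lower, with relative log2 ratios of -0.67, -0.66, -0.63 and -0.62. As counted, 3 signal genes were higher and 0 lower, beside 16.9% and 8.34% of all genes. The first encodes a ubiquitin ligase of TNF signalling, the next 2 belong to noncanonical NF-κB signalling, and Casp8 encodes the caspase that death receptors activate.

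**Figure D3:**
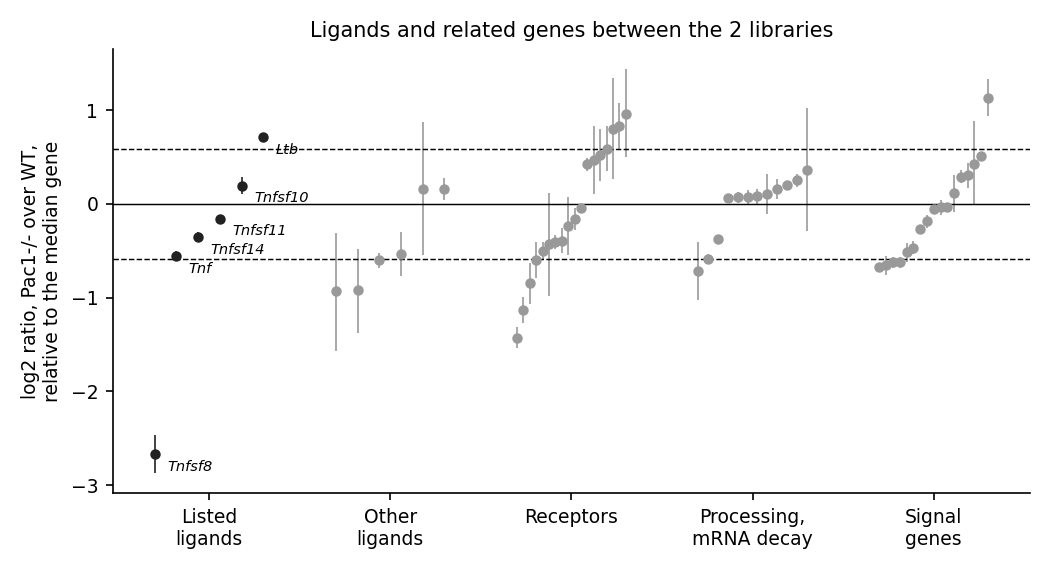
Relative log2 ratio (Pac1-/- over WT, after the shift of the median gene; vertical axis) of each gene with at least 50 UMIs, in 5 groups: the listed ligands (black, labelled) and 4 lists of related genes (grey), sorted within a group. Bars are exact 95% intervals for counting error and dashed lines mark 1.5-fold in each direction; Tnfsf8 lies at -2.67, below all other genes drawn, and Ltb at 0.71.

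Whether a ligand went with cytokine expression was asked within each library in thinned cells. Il5-positive cells made up 32.9% of thinned cells in WT and 19.6% in Pac1-/-. For Il13 these shares were 14.1% and 8.79%, and for Il2, which encodes a growth factor of lymphocytes, 7.43% and 7.86%. Tnf was more frequent in Il2-positive cells of both libraries, and Ltb was less frequent in Il5-positive cells of both. Cells of 1 library are not replicates, so these are descriptions of 2 libraries side by side. Before thinning, cytokine-positive cells were deeper than cytokine-negative cells. By Il5 status the median depths were 5565.5 and 4150 UMIs in WT and 7240 and 5608 in Pac1-/-. By Il13 status they were 5101 and 4350, and 7086 and 5713. By Il2 status they were 4746 and 4433, and 6249 and 5750. Thinning evens the counts but not this depth, and its part in the status differences was not tested.

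Among Il2-positive cells in WT, 17.1% (14.1 to 20.5%) held a Tnf UMI, against 12.2% (11.4 to 13.0%) of Il2-negative cells. In Pac1-/- these shares were 12.0% (9.34 to 15.1%) and 8.45% (7.76 to 9.18%). The intervals of positive and negative cells did not overlap in either library. In UMIs, the log2 ratio of Il2-positive over Il2-negative cells relative to the median gene was 0.66 in WT (0.41 to 0.91) and 0.40 in Pac1-/- (0.05 to 0.74). It stayed above 0 in 20 repeated thinnings, from 0.42 to 1.11 in WT and from 0.18 to 0.80 in Pac1-/-. Without cells holding markers of another type, the Pac1-/- value was 0.11 (-0.30 to 0.50), and at 1000 UMIs per cell the WT value was 0.34 (-0.074 to 0.73).

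Tnfsf11 was also found more often in Il2-positive cells, in 23.3% against 17.9% in WT and in 24.2% against 19.8% in Pac1-/-. Its relative log2 ratio of UMIs ranged from -0.01 to 0.52 over repeated thinnings in WT and from 0.16 to 0.64 in Pac1-/-. Ltb showed no such difference in WT, at 40.6% and 40.9%, and stood at 55.2% and 58.9% in Pac1-/-. Of the ligands with at least 50 thinned UMIs, 1 of 6 in WT (Tnf) and 0 of 5 in Pac1-/- were past 1.5-fold by Il2 status. Over all genes of at least that count, 15.7% in WT and 14.9% in Pac1-/- were past 1.5-fold in either direction, so the ligands' count was near the background.

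In Il5-positive cells of WT, Ltb was found in 36.7% (34.8 to 38.6%) against 42.9% (41.5 to 44.3%) of Il5-negative cells. In Pac1-/- the shares were 53.2% (50.5 to 56.0%) and 59.9% (58.6 to 61.2%). The relative log2 ratio of UMIs was -0.19 in both libraries and below 0 in 20 repeated thinnings of each. Without cells over 2 times the median depth it was -0.086 (-0.20 to 0.025) in WT and -0.20 (-0.31 to -0.091) in Pac1-/-. By Il13 status, Ltb stood at 40.6% and 40.9% in WT, and at 52.9% (48.7 to 57.0%) and 59.1% (57.9 to 60.4%) in Pac1-/-, where the relative log2 ratio was -0.16 (-0.29 to -0.026). Over all deposited barcodes, however, the ratio was -0.29 (-0.42 to -0.16) in WT and -0.080 (-0.20 to 0.042) in Pac1-/-. The difference by Il5 status was small beside that between genotypes, since Il5-positive Pac1-/- cells held Ltb more often than Il5-negative WT cells.

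Tnf was found in 10.7% of Il5-positive and 13.5% of Il5-negative WT cells, and its relative log2 ratio lay between -0.49 and -0.22 over repeated thinnings. In Pac1-/- it was found in 98 of 1289 and in 475 of 5275 cells, with overlapping shares, and the ratio lay between -0.42 and 0.15. When status was set by 2 or more Il5 UMIs, Tnf was lower in Il5-positive cells of both libraries, at -0.73 (-1.002 to -0.46) in WT and -0.79 (-1.34 to -0.28) in Pac1-/-. Tnfsf10 was found in 3.15% and 5.09% in WT and in 4.03% and 6.09% in Pac1-/-. Over repeated thinnings, however, the relative log2 ratio of Tnfsf10 UMIs ranged from -0.40 to 0.34 in WT and from -0.44 to 0.21 in Pac1-/-, so its direction changed with the random draw. With status by 2 or more Il5 UMIs it was -0.67 (-1.20 to -0.18) in WT and -1.32 (-2.28 to -0.49) in Pac1-/-.

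Tnfsf11 was higher in cytokine-positive cells relative to the median gene, though not at every setting. Its relative log2 ratio by Il5 status was 0.28 in WT (0.13 to 0.42) and 0.32 in Pac1-/- (0.15 to 0.49), and by Il13 status it was 0.34 (0.15 to 0.53) and 0.47 (0.24 to 0.70). All 4 values were above 0 in each of the 20 repeated thinnings, at 0.17 or more. Without cells over 2 times the median depth, however, the Il5 value in Pac1-/- was 0.0038 (-0.23 to 0.23), and without cells holding markers of another type the Il13 value in WT was 0.040 (-0.17 to 0.24). Part of this came from the shift of the median gene, which was -0.18 and -0.21 by Il5 status and -0.12 and -0.19 by Il13 status. As counted, the Il5 ratios were 0.10 and 0.12 with intervals that included 0, and the Il13 ratios were 0.22 (0.033 to 0.41) and 0.28 (0.044 to 0.51). Shares of positive cells were 19.5% against 17.8% by Il5 status in WT and 21.4% against 19.9% in Pac1-/-. Over all passing WT cells, Tnfsf11 stood at 137 CPM up to the median depth and 185 CPM above it. In Pac1-/- these levels were 162 and 182 CPM. The part of cell depth in the status ratios of Tnfsf11 was not tested.

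By Il5 status, 1 of 6 ligands in WT (Tnfsf8, lower) and 0 of 5 in Pac1-/- were past 1.5-fold, beside 12.9% and 16.7% of all genes. By Il13 status, 0 of 6 in WT and 1 of 5 in Pac1-/- (Tnfsf10, lower) were, beside 13.6% and 23.1%. Both of these calls reversed their direction under other settings, among them another random thinning, and are not to be read as a pattern. Tnfsf14 passed 1.5-fold in none of the 6 comparisons, with relative log2 ratios between -0.14 and 0.38 over the 3 cytokines and both libraries.

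**Figure D4:**
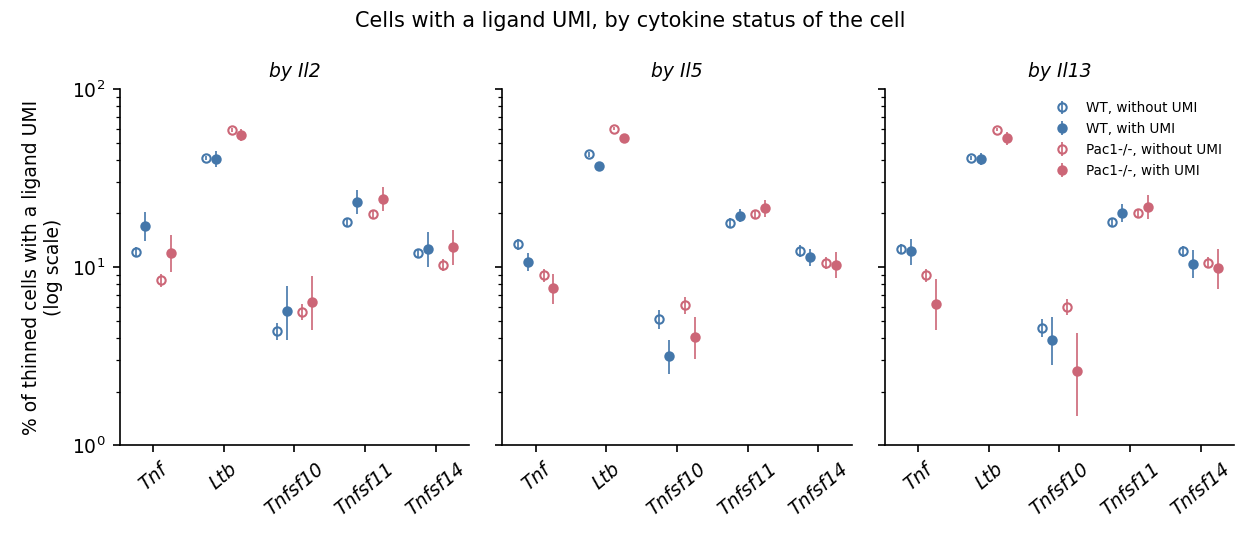
Percent of thinned cells with a UMI of 5 ligands (vertical axis, log scale) by whether the cell held a UMI of Il2, Il5 or Il13 (3 panels). Filled points are cells with and open points cells without the cytokine UMI, blue for WT and red for Pac1-/-, with exact 95% binomial intervals; Tnf is higher in Il2-positive cells of both libraries and Ltb lower in Il5-positive cells of both.

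The genotype differences of Ltb and Tnf were present at each cytokine status. Among cells without a UMI of Il2, Il5 or Il13, Ltb stood at 433 CPM in WT and 794 CPM in Pac1-/-, and among cells with any of the 3 at 367 and 640 CPM. Tnf stood at 124 and 80.5 CPM in the former and at 113 and 76.3 CPM in the latter. The relative log2 ratios were 0.72 and 0.67 for Ltb and -0.78 and -0.70 for Tnf. Their size varied between single classes. The Ltb ratio was 0.43 (0.21 to 0.66) in cells with Il13 but no Il5, short of 1.5-fold. The Tnf ratio was -1.23 (-2.17 to -0.39) in cells with both Il5 and Il13. Among cells with both Il5 and Il13, 554 in WT and 252 in Pac1-/-, Tnf was found in 9.75% and 4.76% and Ltb in 38.8% and 52.4%. For Tnfsf8 the relative ratio was -4.07 in cytokine-negative cells (182 UMIs in WT, 13 in Pac1-/-) and -1.69 in cytokine-positive cells (100 and 20 UMIs). In the cells with both Il5 and Il13, Tnfsf8 gave 9 UMIs in each library, with a relative log2 ratio of 1.13 (-0.38 to 2.64).

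Within the WT library, ligands were also read by Dusp2 status. The 239 thinned WT cells with a Dusp2 UMI held Ltb in 39.3% (33.1 to 45.8%) and Tnf in 13.0% (8.99 to 17.9%). Cells without one held them in 40.9% and 12.5%. The intervals overlapped for all 8 ligands, so no difference was detectable at this depth.

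The number of ligands found in a cell depends on its depth, and was counted in thinned cells. Of these, 35.4% of WT and 25.6% of Pac1-/- cells held none of the 8 ligands, 43.6% and 49.3% held 1, and 20.9% and 25.1% held 2 or more, 1598 and 1646 cells. No thinned cell held more than 4. Of the 28 possible pairs, the 15 among the 6 detected ligands could be described.

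Without thinning, the second ligand was more frequent in cells with the first than in cells without it for all 15 pairs in each library. The share of cells with the second ligand was 1.27 to 2.62 times as high in cells with the first in WT, and 1.13 to 5.55 times in Pac1-/-. At equal depth most of this excess was gone. The ratios had a median of 1.09 in WT and 1.05 in Pac1-/-, 7 of the 15 pairs were above 1 in both libraries, 2 below 1 in both, and 0 past 1.5 in both.

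Intervals of the shares with and without the first ligand were apart for 1 pair in each library, Tnfsf8 with Tnfsf10 in WT and Ltb with Tnfsf10 in Pac1-/-. Pairs of other genes were not counted, so this count and those above have no background and are descriptions only. In WT, Tnfsf10 was found in 5.10% of Ltb-positive cells (4.35 to 5.93%) and in 4.01% of Ltb-negative cells (3.46 to 4.62%), with overlapping intervals. In Pac1-/- it was found in 6.42% (5.67 to 7.24%) and 4.64% (3.88 to 5.49%). Tnf and Ltb, the adjacent genes, were found together close to the level of independence: Ltb was in 44.6% of Tnf-positive and 40.3% of Tnf-negative WT cells, and in 58.6% of either kind in Pac1-/-. In WT, Tnfsf10 was found in 10 of 92 Tnfsf8-positive cells (10.9%, 5.34 to 19.1%) against 4.38% of the others. In Pac1-/- it was found in 0 of 23, which allows up to 14.8%.

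**Figure D5:**
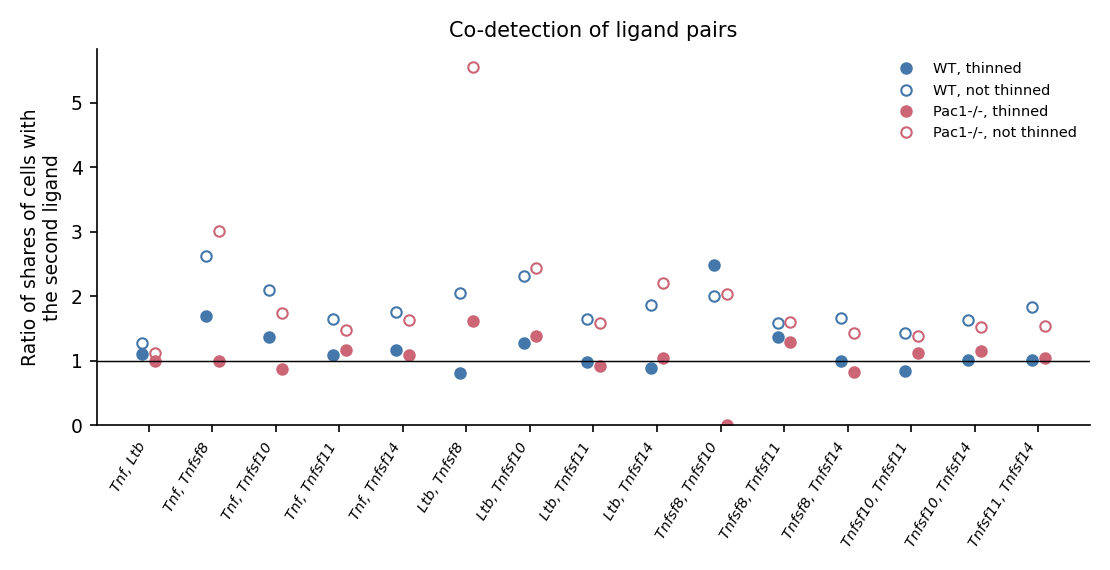
Co-detection of the 15 pairs among 6 ligands. The vertical axis is the share of cells with the second ligand in cells with the first, divided by that in cells without it, for WT (blue) and Pac1-/- (red), in cells thinned to 1500 UMIs (filled) and in cells as sequenced (open); the line at 1 marks independence, and most filled points lie near it while all open points lie above it.

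Tnf, Ltb, Tnfsf11 and Tnfsf14 were found in at least 5% of thinned WT cells, and for these 4 the genes most like them from cell to cell were sought. Over 5858 genes in the 7634 thinned WT cells, Pearson's r of log2(UMIs + 1) with Tnf was highest for Cd69 (0.13 in WT, 0.09 in Pac1-/-), an early activation marker, and for Jun (0.12 and 0.11). Next came Lgals1 and Fos, at 0.10 and 0.09 in WT. For Ltb the highest were Hspa1b (0.12 and 0.16), Ptprcap, Hspa1a, Txnip and Il7r. For Tnfsf11 they were Nfkbia (0.10 and 0.09), Bhlhe40, Junb, Gadd45b and Nr4a1. For Tnfsf14 the highest was Nt5c3 at 0.05 in WT, and this gene and the next 4 (S100pbp, Txlna, Gigyf1 and Tspo) were below 0 in Pac1-/-. These cells share a library, and in counts this sparse such values are a description and no finding.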

How the data were processed

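Lung ILC2s of WT and Pac1-/- mice gave 1 droplet library each (10x Genomics 3′ chemistry, about 13000 cells loaded). The deposited values are unnormalised UMI counts for each gene in each barcode, made by the authors with Cell Ranger against mm10. The submitters' processing notes give version 6.1.1, and per the file headers it was 4.0.0. The annotation release was not given in the sources used here, and the study's own cell selection, which retained fewer cells of each genotype than passed the filter used here, was not rebuilt. Gene positions came from GENCODE vM21 (GRCm38), matched on gene identifier, and promoters from RefSeq.

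Computation used Python 3.11.15 with pandas 2.3.3, numpy 2.4.6 and scipy 1.17.1. Doublets were predicted with scikit-learn 1.9.0, and plots were drawn with matplotlib 3.10.9. Barcodes with at least 500 genes and at most 10% mitochondrial UMIs were kept, and doublets were not removed in the main values. UMIs were summed over cells and divided by the library total to give CPM. Ratios carry exact conditional binomial intervals, levels exact Poisson intervals and shares exact Clopper-Pearson intervals, all at 95%. Ratios were set relative to the median gene with at least 50 UMIs over both libraries (or over both classes of cells). For shares, status and co-detection each cell was thinned to 1500 UMIs, which left out 760 cells in WT and 523 in Pac1-/-. That depth was chosen among 500, 1000, 1500, 2000 and 3000 as the highest to retain 90% of cells in both libraries. The ratio and thinning steps were tested on simulated data. With 1 library per genotype there was no test, and 1.5-fold was used as a descriptive limit.

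The members and gene lists were chosen with earlier results of these data known. All 8 ligands are named, as are list genes past 1.5-fold with at least 50 UMIs, receptors of the 8 ligands, and the 5 genes with the highest correlation to each ligand found in at least 5% of thinned WT cells, of which 1 gene is not reported here. Alternatives covered the barcode filter, doublets, deep cells, markers of other cell types, scaling, thinning, the status limit and the fold.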

Additional observations from a re-analysis of the deposited data

Results flagged for a closer look

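By Il5 status, the relative log2 ratio of Tnfsf8 had opposite signs in the libraries, -0.59 in WT and 1.80 in Pac1-/-, with counting intervals that did not include 0. The difference was not tested. The Pac1-/- value rested on 14 UMIs in 7 Il5-positive cells. Without the cell with the most Tnfsf8 UMIs, which held 20 of them beside 44 Il13 UMIs, and with the thinning redrawn, it was -0.53. The WT value without its highest cell was -1.05, so that both libraries then had the same sign, but it was 0.45 without predicted doublets and 0.16 without cells holding markers of another type. Shares of positive cells did not differ in direction, at 1.36% and 1.13% of Il5-positive and Il5-negative cells in WT and 0.543% and 0.303% in Pac1-/-.

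The barcodes that failed the filter, 2472 in WT and 2408 in Pac1-/-, entered only the alternatives over all deposited barcodes. In the failing barcodes the 8 ligands together stood at 693 CPM in WT and 932 CPM in Pac1-/-, above the level of a count of 0. In passing cells the same sums were 826 and 1117 CPM. In the failing barcodes Ltb stood at 300.1 CPM in WT and 535 CPM in Pac1-/-.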

How the results depend on the processing

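With 1 library per genotype, no alternative speaks to the spread between mice. Between genotypes, Ltb stayed higher in Pac1-/- under 10 alternatives (relative log2 ratio 0.67 to 0.90) and Tnfsf8 lower under 11 (-4.07 to -1.69). Tnf stayed lower under 10 (-0.78 to -0.37), and its call turned with doublets left out, cells over 2 times the median depth (deep cells) left out, equal weight per cell and cells of 1 cytokine status. Under 10 alternatives Tnfsf10 stayed higher (0.15 to 0.38) and Tnfsf14 lower (-0.42 to -0.17), whereas Tnfsf11 changed sign (-0.16 to 0.12). These ranges do not cover single cytokine classes. There Ltb was 0.43 in cells with Il13 but no Il5. In cells with both Il5 and Il13, Tnf was -1.23, and Tnfsf8 was 1.13 on 9 UMIs in each library. The count of ligands past 1.5-fold was 2 to 3, and 1 at 2-fold. The median relative log2 ratio of the ligands, -0.26, moved to -0.068 as counted and to -0.13 within cells with an Il2, Il5 or Il13 UMI.

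Counts of ligands past 1.5-fold by status, summed over both libraries, were 1 for each cytokine. By Il2 status the count was 2 over all deposited barcodes, with 1000 genes and 5% mitochondrial UMIs, and with 1000 UMIs per cell. It was 3 without predicted doublets, 4 without deep cells, 4 with status by 2 or more UMIs, 0 at 2-fold and 1 to 3 over 20 thinnings. By Il5 status it was 0 over all deposited barcodes, with the stricter filter, without predicted doublets, without cells holding markers of another type, without thinning, at 2-fold and as the lowest of 20 thinnings, and 5 with status by 2 or more UMIs. By Il13 status it was 0 over all deposited barcodes, without predicted doublets and at 2-fold, 2 with the stricter filter, 3 with status by 2 or more UMIs, and 0 to 2 over 20 thinnings. The number of pairs past 1.5 in both libraries, 0, was 1 without predicted doublets, 1 without cells holding markers of another type, 2 at 1000 UMIs, 3 as the highest of 20 thinnings and 11 without thinning. The cause of these moves was not tested.

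Tnfsf8 by Il5 status in WT reversed to 0.45 without predicted doublets, 0.16 without cells holding markers of another type, 0.56 without thinning and 0.31 in the highest thinning. Tnfsf10 by Il13 status in Pac1-/- reversed to 0.27, 0.13, 0.040 and 0.46 under the same settings and to 0.47 at 1000 UMIs. No other called ligand value reversed. Of 617 single values under alternatives, 447 stayed within the counting interval, 161 moved out of it and 9 reversed. Depth limits Fasl and Cd40lg throughout, and Tnfsf8 and Tnfsf10 by status. No paired analysis was possible because each group had 1 library.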
